A study of Bos taurus with 34 samples.

Results

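Transcripts of 9 genes that break down phenylalanine, tyrosine and tryptophan, or that make and recycle the cofactor of these pathways, were examined in bovine liver. The genes are PCBD1, QDPR, GCH1, TAT, HPD, HGD, FAH, TDO2 and KMO. They were chosen by symbol with earlier results of these data known, and all 9 were found among the 14161 genes of the authors' deposited comparison of SLICK with FREE liver. The Ensembl identifiers of all 9 were also present in both deposited count tables, which supplied gene positions and lengths.

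The series has 34 liver samples of cattle that the labels give as Senepol, and its title names the SLICK1 mutation of PRLR, the prolactin receptor gene. In the experiment with TruSeq libraries, 10 SLICK daughters carried 1 copy of the allele, 5 sired by the bull Blanco and 5 by Lone Ranger, and 8 FREE daughters carried 0 copies, 7 sired by Lone Ranger and 1 by Blanco. Both groups of daughters thus descend from slick bulls, and sire and genotype are partly confounded. The experiment with SMARTer libraries holds 5 samples with 1 copy (S1) and 11 with 2 copies (S2). Age and treatment are not given in the labels. Library columns carry animal codes that match no sample label, so values per animal, depth per sample and S2 against S1 are not analysed here. All differences below are those of SLICK against FREE per the authors' deposited table, with positive values read as higher in SLICK from the name of that table, a direction that single libraries could not check.

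The liver is the main site where surplus aromatic amino acids are degraded. Phenylalanine is hydroxylated to tyrosine in a step that consumes tetrahydrobiopterin (BH4), a cofactor that must be made from GTP and regenerated after each turnover. Tyrosine is then transaminated, its ring is opened, and the product is cleaved to fumarate and acetoacetate. Tryptophan enters the kynurenine pathway, which leads to complete oxidation or to the synthesis of NAD. Inherited loss of several of these enzymes causes known metabolic disorders, among them alkaptonuria (HGD) and tyrosinemia (FAH, TAT and HPD).

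Of the 9 genes, PCBD1, the BH4 recycling enzyme pterin carbinolamine dehydratase, rose in SLICK liver, and it was the only one to pass an adjusted p of 0.05 per the authors' deposited table. Log2 ratios of SLICK to FREE (log2 fold changes) per the authors' deposited table were positive for 8 of the 9 genes and negative for GCH1, the enzyme that starts BH4 synthesis. They ran from -0.15 (GCH1) to 0.60 (QDPR, which returns the used cofactor to BH4), with a median of 0.27, against a median of -0.01 over all 14161 genes, of which 48.2% were positive. The share passing an adjusted p of 0.05 over all genes was 0.501%, made up of 0.0918% higher and 0.410% lower in SLICK, and 1 of the 9 genes passed, as higher. At an unadjusted p of 0.05, 5 of the 9 genes were higher (PCBD1, QDPR, HPD, HGD and FAH) and 0 lower. The background at that p was 16.0% of all genes, 7.22% higher and 8.79% lower. The share higher grew with the average level of a gene in log2 CPM (reads scaled to library size). It was 17.2% from 6 to 8 log2 CPM (the class of PCBD1 and QDPR), 33.7% from 8 to 10 (HGD and FAH) and 34.4% above 10 (HPD). At an adjusted p of 0.10, QDPR and HGD passed beside PCBD1, against 2.77% of all genes and 0.826% of all genes as higher.

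The authors' table gives an F statistic per gene but no error. An approximate standard error (SE) was computed from each log2 ratio and its F, and an approximate 95% interval from the 18.7 degrees of freedom that F and p imply. These SEs reflect the spread between animals under the authors' model, whose terms the sources used here do not give. The 18.7 degrees of freedom exceed the 18 TruSeq samples, so the SE of a gene does not rest on its own spread alone. The labels number the samples of a group but do not state how the daughters were sampled. The p-values thus set each difference only against the spread between these samples under the authors' model.

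**Figure D1:**
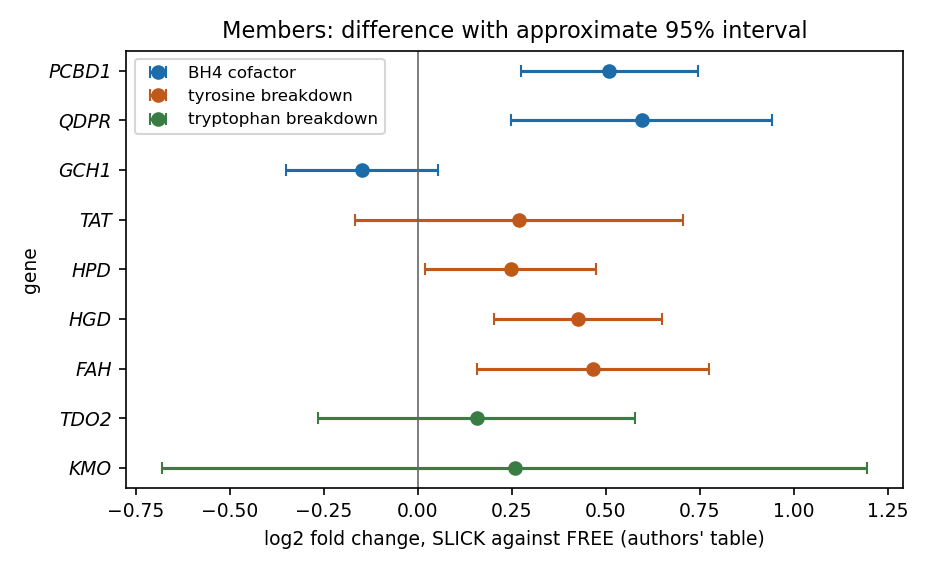
Log2 ratio of SLICK against FREE (x axis) for each of the 9 genes (y axis), coloured by role. Points are the authors' deposited values and bars the approximate 95% intervals computed from the authors' F. The bars of PCBD1, QDPR, HPD, HGD and FAH lie above 0, and the bar of KMO, which starts at -0.68, is the widest.

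Of the 3 genes of the BH4 cofactor, PCBD1 rose at an adjusted p of 0.05 and QDPR and GCH1 did not pass. PCBD1 lies on chromosome 28, in ARS-UCD1.2 coordinates from 27067751 to 27072908 on the - strand (ENSBTAG00000011866, 1131 bases of exon in 4 blocks). Its product removes water from the spent cofactor. The log2 ratio of PCBD1 per the authors' deposited table was 0.51 (approximate SE 0.11, p = 2.27e-04, adjusted p = 0.0486), which is 1.42-fold (approximate interval 1.21 to 1.68). It was the last of the 71 genes that passed, with 70 genes at a smaller p per the authors' deposited table. Its adjusted p was shared with other genes, 41 in all.

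QDPR, the dihydropteridine reductase that completes the recycling, lies on chromosome 6 from 112919767 to 112939911 on the - strand (ENSBTAG00000040333). Per the authors' deposited table its log2 ratio of 0.60 was the highest of the 9, with an approximate SE of 0.17 and an adjusted p of 0.0930. The point value exceeded that of PCBD1, but the SE was larger, and a log2 ratio of 0.75 would have been needed at this SE to reach the F of the last gene that passed. GCH1, GTP cyclohydrolase, catalyses the first step of BH4 synthesis and lies on chromosome 10 from 67345440 to 67400407 on the - strand (ENSBTAG00000040151). For GCH1, the authors' deposited table gave a log2 ratio of -0.15 (approximate SE 0.10, unadjusted p = 0.140), with an approximate interval from -0.35 to 0.05. This interval lay wholly below the intervals of PCBD1 (0.28 to 0.74) and QDPR (0.25 to 0.94). The difference between these genes was not tested, since the genes share animals.

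Other genes of BH4 synthesis and recycling were taken from a list of 8, all measured, 3 of them the genes above. Of the list, 1 rose (PCBD1) and 0 fell at an adjusted p of 0.05, and 3 were higher and 0 lower at an unadjusted p of 0.05. Over all genes the shares were 0.0918% and 0.410% at the adjusted p, and 7.22% and 8.79% at the unadjusted p. The list median was 0.10. GCHFR, the regulatory protein that binds GTP cyclohydrolase and mediates its inhibition by BH4, had a log2 ratio of 0.29 per the authors' deposited table (approximate SE 0.09, adjusted p = 0.114). The enzyme and its regulator thus had point values of opposite sign. The enzymes of the later steps of BH4 synthesis, PTS and SPR, had log2 ratios of 0.01 and 0.05 per the authors' deposited table. PCBD2, the close relative of PCBD1, had a log2 ratio of 0.15 (approximate interval -0.01 to 0.30) per the authors' deposited table. DNAJC12, a co-chaperone of enzymes that use the cofactor, had a log2 ratio of -0.05 per the authors' deposited table.

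**Figure D2:**
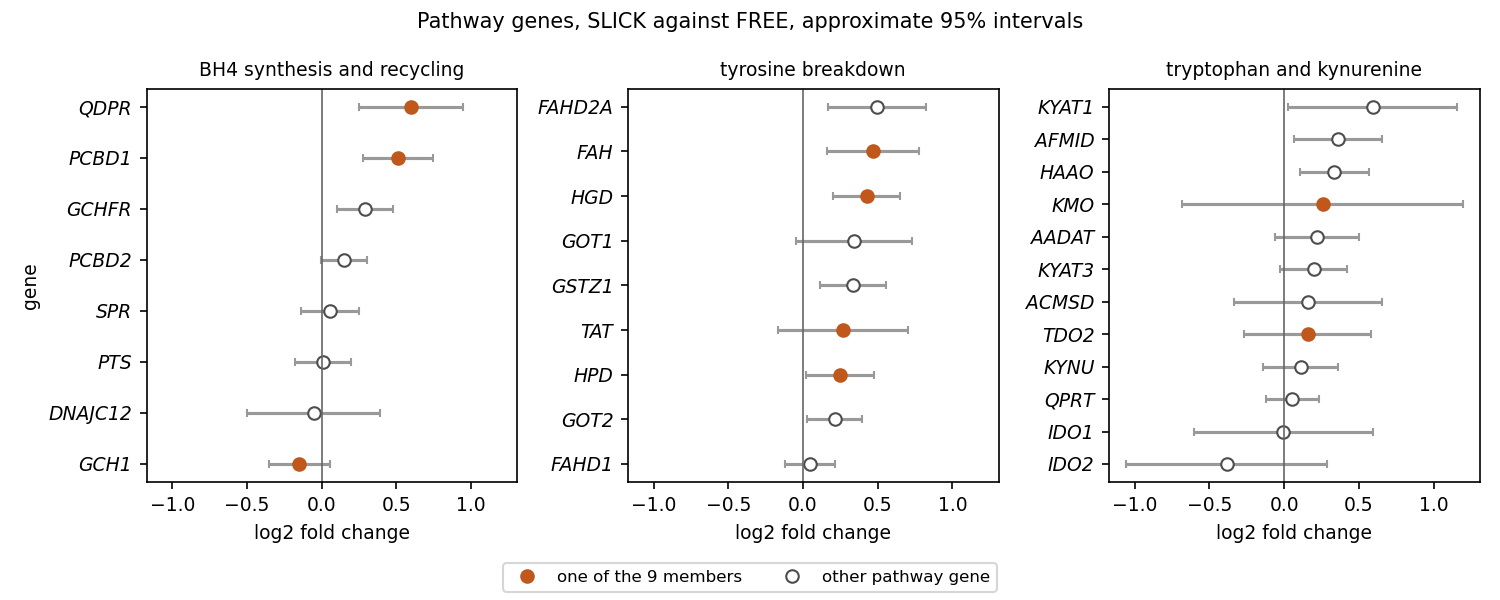
Log2 ratio of SLICK against FREE (x axes) for the measured genes (y axes) of 3 pathway lists, with approximate 95% intervals as bars. Filled points mark members of the 9 genes and open points the other genes of each list. All 9 measured genes of the tyrosine breakdown list have positive values. Their ends, 0.05 and 0.50, are FAHD1 and FAHD2A, relatives of FAH that act on other substrates. GCH1, DNAJC12, IDO1 and IDO2 lie at or below 0.

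The 4 genes of tyrosine breakdown all had positive log2 ratios per the authors' deposited table, from 0.25 to 0.47, and 0 passed an adjusted p of 0.05. TAT, tyrosine aminotransferase, starts the pathway and is a classical target of glucocorticoids in liver. It lies on chromosome 18 from 39435299 to 39493837 on the + strand (ENSBTAG00000002214). The authors' deposited table gave TAT a log2 ratio of 0.27, with an approximate SE of 0.21 and an adjusted p of 0.596. The approximate interval, from -0.17 to 0.70, takes in both 0 and the values of the other genes of the pathway.

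HPD, hydroxyphenylpyruvate dioxygenase, makes homogentisate and lies on chromosome 17 from 53458874 to 53470660 on the + strand (ENSBTAG00000004175). HPD had a log2 ratio of 0.25 per the authors' deposited table (approximate SE 0.11, p = 0.0346, adjusted p = 0.276). HGD, homogentisate dioxygenase, opens the ring and lies on chromosome 1 from 65337969 to 65380604 on the - strand (ENSBTAG00000015895). HGD had a log2 ratio of 0.43 per the authors' deposited table, with an approximate SE of 0.11 and an adjusted p of 0.0732, or 1.34-fold (approximate interval 1.15 to 1.57). At this SE a log2 ratio of 0.49 would have been needed to pass. FAH, fumarylacetoacetase, makes the last cut and lies on chromosome 21 from 26110012 to 26142398 on the + strand (ENSBTAG00000012338). Its log2 ratio per the authors' deposited table was 0.47 (approximate SE 0.15, p = 0.00511, adjusted p = 0.121). The intervals of the 4 genes overlapped one another.

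From a list of 10 genes of tyrosine breakdown, relatives of its enzymes included, 9 were measured and HPDL was not among the genes tested. Of the 9, 0 passed an adjusted p of 0.05 and the median was 0.34. At an unadjusted p of 0.05, 6 were higher and 0 lower, against 7.22% and 8.79% of all genes. GSTZ1, the isomerase between HGD and FAH, had a log2 ratio of 0.34 per the authors' deposited table (adjusted p = 0.117). Each enzyme from HPD to FAH thus had an unadjusted p under 0.05. All of them average above 8 log2 CPM, where a large share of all genes was higher at that p. It was 33.7% from 8 to 10 log2 CPM and 34.4% above 10. Of the aspartate aminotransferases, the mitochondrial GOT2 had 0.21 and the cytosolic GOT1 0.34 per the authors' deposited table, with adjusted p of 0.242 and 0.398. Among the relatives of FAH that act on other substrates, FAHD2A had a log2 ratio of 0.50 and FAHD1 of 0.05 per the authors' deposited table, neither passing (adjusted p = 0.125 and 0.837).

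The 2 genes of tryptophan breakdown had positive point values with wide intervals. TDO2, the hepatic tryptophan dioxygenase that commits tryptophan to kynurenine, lies on chromosome 17 from 43386894 to 43403747 on the - strand (ENSBTAG00000011062). The authors' deposited table gave TDO2 a log2 ratio of 0.16 (approximate SE 0.20, adjusted p = 0.783), with an approximate interval from -0.27 to 0.58. KMO, kynurenine monooxygenase of the outer mitochondrial membrane, hydroxylates kynurenine and lies on chromosome 16 from 35178266 to 35246743 on the - strand (ENSBTAG00000014439). For KMO the log2 ratio per the authors' deposited table was 0.26 (approximate SE 0.45, adjusted p = 0.850), and its approximate interval in fold ran from 0.623 to 2.29. A rise or a fall of 1.5-fold therefore lay inside the interval of KMO, and the values do not show that it was level.

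A list of 12 genes of tryptophan and kynurenine metabolism was measured in full, with 0 genes passing an adjusted p of 0.05. At an unadjusted p of 0.05, 3 were higher and 0 lower, against 7.22% and 8.79% of all genes, and the median was 0.18. The 3 were HAAO, the dioxygenase that leads to quinolinate, AFMID, the formamidase that releases kynurenine, and the aminotransferase KYAT1. Their log2 ratios per the authors' deposited table were 0.34 (HAAO), 0.36 (AFMID) and 0.59 (KYAT1), with adjusted p from 0.135 to 0.294. HAAO averaged 9.08 log2 CPM, and 33.7% of all genes from 8 to 10 log2 CPM were higher at an unadjusted p of 0.05. AFMID and KYAT1 averaged 5.20 and 5.31 log2 CPM, and that share was 7.40% from 4 to 6 log2 CPM. The other dioxygenases that open the indole ring, IDO1 and IDO2, had log2 ratios of -0.01 and -0.39 per the authors' deposited table, with approximate SEs of 0.29 and 0.32. All 3 enzymes of this first step (TDO2, IDO1 and IDO2) thus had intervals that held 0. KYNU, which cleaves kynurenines, had a log2 ratio of 0.11, ACMSD, which turns the pathway towards oxidation, of 0.16 and QPRT, which turns it towards NAD, of 0.05 per the authors' deposited table.

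Further along, a list of 11 genes of NAD synthesis and glutaryl-CoA oxidation had 9 measured, of which 0 passed an adjusted p of 0.05. At an unadjusted p of 0.05, 4 were higher and 0 lower, against 7.22% and 8.79% of all genes. GCDH, the glutaryl-CoA dehydrogenase shared by lysine and tryptophan breakdown, had a log2 ratio of 0.29 per the authors' deposited table (adjusted p = 0.112). Those of OGDH and NAPRT were 0.19 and 0.34 per the authors' deposited table. In a list of 11 genes of amine, melanin and oxidase branches, 7 were measured and 0 passed, with 1 higher and 1 lower at an unadjusted p of 0.05. MAOB, a monoamine oxidase, had a log2 ratio of 0.44, and IL4I1, an aromatic amino acid oxidase of immune cells, of -0.89 per the authors' deposited table (adjusted p = 0.112 and 0.0876). IL4I1 averaged only -0.33 log2 CPM there. TH, tyrosine hydroxylase, averaged -1.81 log2 CPM, with a log2 ratio of -0.55 per the authors' deposited table.

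Over the 6 pathway lists, 52 of 60 genes were measured, and 1 rose and 0 fell at an adjusted p of 0.05. Without the 9 genes, 43 were measured with a median of 0.15, of which 14 were higher, 2 lower and 27 not past an unadjusted p of 0.05. At that p, 7.22% of all genes were higher and 8.79% lower. The share higher was 17.2% for genes from 6 to 8 log2 CPM and 33.7% from 8 to 10. These lists were written with earlier results of the same data known.

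The average levels per the authors' deposited table set HPD, HGD, TAT, FAH and TDO2 above GCH1, the first enzyme of BH4 synthesis, while KMO lay nearer to GCH1. Levels are averages over all libraries of the comparison, and the spread of a level over samples is not given. On the log2 CPM scale (CPM, reads of a gene scaled to the size of its library) the averages per the authors' deposited table were 10.76 for HPD, 9.86 for HGD, 8.75 for TAT, 8.46 for FAH and 8.12 for TDO2. They were 7.98 for PCBD1, 7.78 for QDPR, 5.38 for KMO and 4.02 for GCH1 per the authors' deposited table. HPD, at 1735 CPM, ranked 73 among the 14161 genes. Divided by exon length, the order changed. Per kilobase, HPD (10.07) and HGD (8.98) stayed highest on the log2 scale, PCBD1 followed with 7.80 and QDPR with 7.23, then TAT with 6.99 and TDO2 with 6.97. FAH, whose model holds 4294 bases of exon, came next with 6.36 log2 CPM per kilobase, ahead of GCH1 (4.11) and KMO (3.75). TAT and TDO2 were nearly level on this scale, and without a spread over samples neither can be set above the other.

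Differences between SLICK and FREE moved with level over all genes, which bears on 7 of the 9 genes, those averaging 7 log2 CPM or more. Among the 4268 genes from 4 to 6 log2 CPM, the median log2 ratio per the authors' deposited table was 0.01, and 7.40% were higher at an unadjusted p of 0.05. Among the 1435 genes from 6 to 8 log2 CPM, the class of PCBD1 and QDPR, the median was 0.05, with 17.2% higher and 6.69% lower. Among the 380 genes from 8 to 10 log2 CPM the median was 0.16 and 33.7% were higher, against 3.42% lower. Among the 122 genes above 10 log2 CPM, the median was 0.21, 34.4% were higher and 89.3% were positive. The part of level in the values of the 9 genes was not tested. Among genes within 0.5 log2 CPM of each, the share with a lower log2 ratio was highest for QDPR (407 genes). PCBD1 followed with 97.6% (370 genes), KMO with 93.3% (1936 genes) and FAH with 92.8% (277 genes). The point value of KMO had an approximate SE of 0.45 (unadjusted p = 0.573 per the authors' deposited table). The share was 79.1% for HGD, 70.8% for TAT, 61.8% for TDO2, 41.5% for HPD and 16.4% for GCH1. The value of HPD (0.25, unadjusted p under 0.05) therefore lay below the middle of the 53 genes within 0.5 log2 CPM. It lay above the median of 0.21 of the class above 10 log2 CPM, so its place depends on the genes compared.

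**Figure D3:**
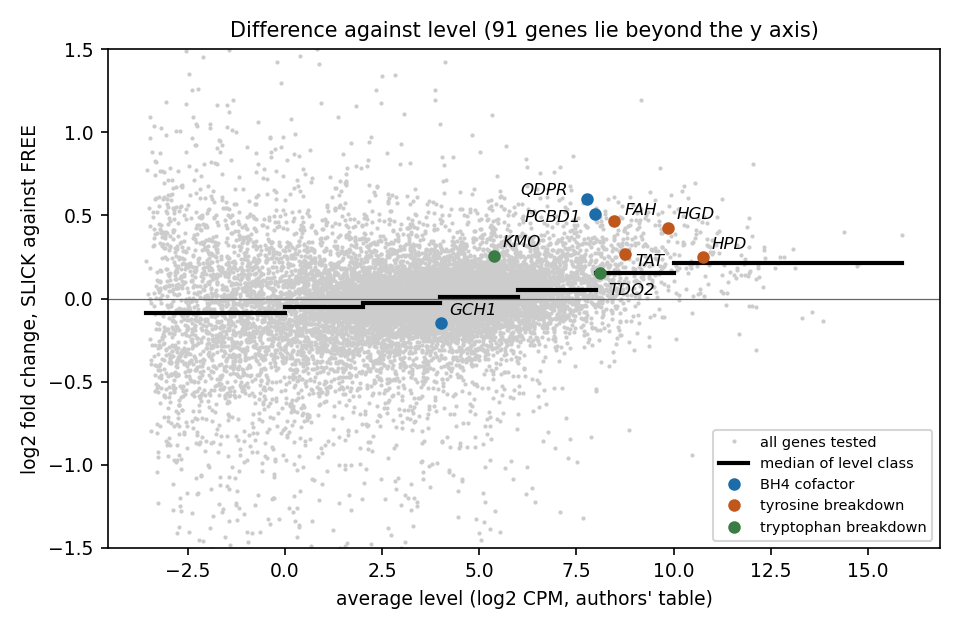
Log2 ratio of SLICK against FREE (y axis) plotted on the average level in log2 CPM (x axis), both from the authors' deposited table. Grey points are all genes tested (91 lie beyond the y axis), black lines the median of each level class, and coloured points the 9 genes. The lines climb from -0.09 below 0 log2 CPM to 0.21 above 10. QDPR, PCBD1, FAH, HGD and KMO lie above the line of their class and GCH1 lies below it. HPD, TDO2 and TAT lie closer to it.

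Of the markers of liver cell types, 0 passed an adjusted p of 0.05. Hepatocyte markers were all measured (13 of 13), with albumin (ALB) at 15.87 log2 CPM per the authors' deposited table. Of the 13, 10 had a positive log2 ratio, 5 were higher and 0 lower at an unadjusted p of 0.05, and the median was 0.25, beside 0.27 for the 9 genes. These markers average over 8 log2 CPM, where 33.7% (8 to 10 log2 CPM) and 34.4% (above 10 log2 CPM) of all genes were higher at that level of p. Of 10 bile duct markers, 9 were measured and all 9 were negative, with a median of -0.69. At an unadjusted p of 0.05, 6 were lower, against 8.79% of all genes. Neutrophil markers (5 of 7 measured) were all negative with 3 lower at that level. Macrophage markers (9 of 10 measured) were positive for 6 and negative for 3, with a median of 0.12, 0 higher and 2 lower. Endothelial markers (9 of 9) were positive for 8, with 1 higher and 0 lower. Stellate cell markers (9 of 9) were positive for 3, with 0 higher and 2 lower, and T and NK cell markers (9 of 10) were positive for 6, with 0 higher and 0 lower. Kidney tubule markers, examined because kidney also expresses part of the pathway, had 1 of 6 measured, CUBN, at -1.47 log2 CPM per the authors' deposited table. CUBN was lower there, with a log2 ratio of -0.95 (unadjusted p = 0.0333, adjusted p = 0.273). Marker levels per group are not analysed here, and the part of cell composition in the values of the 9 genes was not tested. In whole tissue, fewer cells of a type and less RNA per cell cannot be told apart.

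Precision differed between the 9 genes, also when each was set beside genes of like level. The approximate SE ran from 0.10 (GCH1) to 0.45 (KMO). Among the 1936 genes within 0.5 log2 CPM of KMO, 99.7% had a smaller approximate SE, and that of KMO was 5.34 times their median of 0.08. KMO would have needed a log2 ratio of 2.04 to reach the F of the last gene that passed. TDO2 and TAT, the enzymes that begin each pathway, also had wide errors, with 94.5% and 91.3% of genes of like level at a smaller approximate SE. TDO2 would have needed 0.92 and TAT 0.95 to pass. HPD and HGD lay at the other end, with 13.2% and 26.7% of genes of like level at a smaller approximate SE. For HPD, HGD and GCH1 a log2 ratio of 0.49, 0.49 and 0.44 would have been enough to pass. The approximate SE of PCBD1 was 1.07 times the median of genes of like level, and 85.5% of genes of like level had a smaller one than QDPR.

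**Figure D4:**
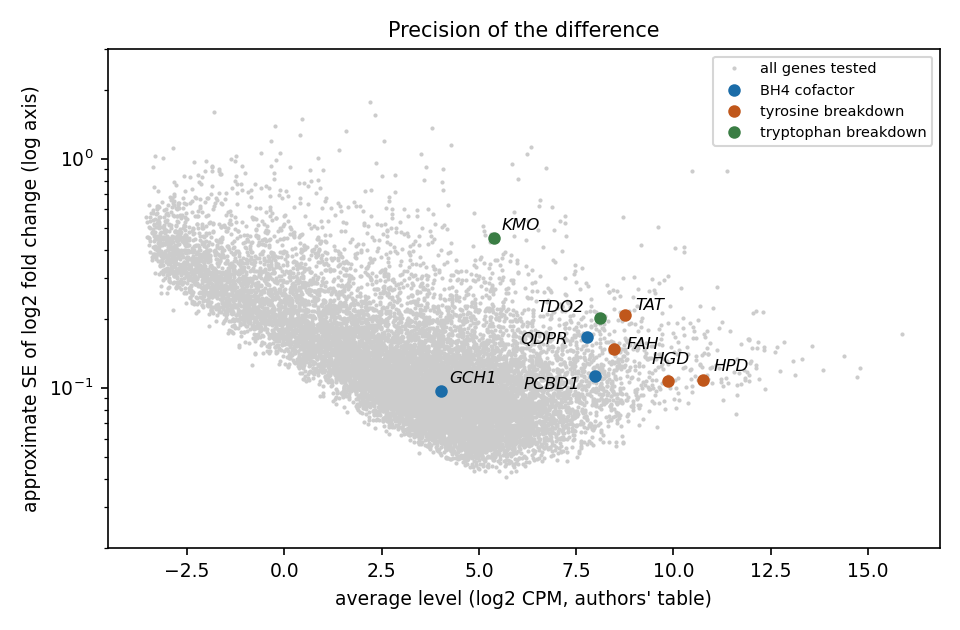
Approximate SE of the log2 ratio (y axis, log scale) plotted on the average level in log2 CPM (x axis) for all genes tested (grey) and the 9 genes (coloured by role). KMO, at 0.45, lies near the top of the genes of its level, and TDO2 (0.20) and TAT (0.21) lie above HPD and HGD (both 0.11).

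The genomic surroundings were read from the ARS-UCD1.2 gene models in the deposited count table. No 2 of the 9 genes were neighbours, HPD and TDO2 being far apart on chromosome 17. Within 100 kb of the 9 genes lay 32 other genes, of which 19 were tested and 0 passed an adjusted p of 0.05. At an unadjusted p of 0.05, 3 were higher and 3 lower, against 7.22% and 8.79% of all genes. CLRN2, head to head with QDPR on the opposite strand at a distance of 2.74 kb, had a log2 ratio of 1.46 at an average of 0.39 log2 CPM per the authors' deposited table (p = 0.00457, adjusted p = 0.117). TAT was the 1 gene of the 9 whose span overlapped a tested gene, sharing 479 bases with MARVELD3 on the opposite strand. MARVELD3 had a log2 ratio of -0.94 at an average of -0.04 log2 CPM per the authors' deposited table. The sources used here do not give whether the TruSeq libraries were counted by strand, so reads in that stretch cannot be told apart. SGPL1, the tested gene nearest to PCBD1, had a log2 ratio of 0.11 per the authors' deposited table (adjusted p = 0.837).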

How the data were processed

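Liver RNA was sequenced from TruSeq (18 samples) or SMARTer (16 samples) libraries, per the labels' protocols. Per the submitters' processing notes, edgeR, HISAT2 2.1.0, featureCounts and Subread were used with the ARS-UCD1.2 build, in roles not stated. The SMARTer count table names featureCounts 1.6.2 and Ensembl release 100 models, per the file headers. The authors' deposited comparison holds for each gene the log2 fold change, the average level in log2 CPM, F as a score, and the p-value before and after adjustment, per the file headers. Its 14246 rows hold 14161 genes once 85 repeats are dropped. Gene length and position come from other deposited columns.

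The 70 library columns of 4 tables match no sample label and were not used. The quasi-likelihood fits that had been planned were therefore replaced by the authors' deposited p-values across all genes, and S2 against S1 was not made. Adjusted p-values are the deposited ones. The approximate SE is the absolute log2 fold change divided by the square root of F, and intervals use 18.7 degrees of freedom, found from F and p in 282 genes. This step was tested on simulated data whose F was built from the same relation. That test cannot show how well the approximation holds for the authors' F. Python 3.11.15, numpy 2.4.6, pandas 2.3.3, scipy 1.17.1 and matplotlib 3.10.9 were used.

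The 9 genes and the lists were chosen with earlier results of these data known. Named were the 9 genes, PRLR, list genes with an adjusted p under 0.05 and the 3 of each pathway, regulator and response list with the smallest p. Some list genes are not reported here and are left out of the list counts. Further partners, relatives and neighbours were named after their values were seen. Alternatives were another adjustment, a level filter, a threshold of 0.10 and centring.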

Additional observations from a re-analysis of the deposited data

How the results depend on the processing

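The deposited p-values were adjusted anew by Benjamini-Hochberg, over the 14161 genes and over genes of at least 0 log2 CPM only. Each of the 9 genes kept its side of the threshold, with PCBD1 at an adjusted p of 0.0452 and 0.0451. Both settings reuse the deposited log2 ratios and p-values, so neither tests the fit itself. Centring the fold changes on the median of all genes (-0.01) left the adjusted p-values unchanged, so it could not move a gene across the threshold. The sign of each of the 9 genes stayed the same under centring. At an adjusted p of 0.10, 3 of the 9 genes passed (3 higher), QDPR and HGD being added, and over all genes 392 passed, 117 higher and 275 lower. No paired analysis was possible because the library columns carry no replicate numbers or sample names. For the same reason the planned fits with DESeq2, without a low count filter, without sire, in Lone Ranger daughters alone and with each replicate left out were not run. Whether 1 animal carries the value of any gene is not known, and depth per sample is not analysed here. Under the deposited adjustment, PCBD1 stood last among the 71 genes that passed. With p-values adjusted anew, 90 genes passed over the 14161 genes, and 77 over genes of at least 0 log2 CPM. PCBD1 was not the last in either.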

Other observations

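Of 8 hepatic regulators of these genes, 7 were measured, 3 with a positive and 4 with a negative log2 ratio, and 0 passed an adjusted p of 0.05. At an unadjusted p of 0.05, 1 was higher and 1 lower. Over all genes, 7.22% were higher and 8.79% lower at that p. The glucocorticoid receptor NR3C1 had a log2 ratio of 0.20, HNF4A, a central factor of hepatocytes, had 0.15 and CEBPB, a factor of the acute phase response, had -0.42 per the authors' deposited table. Genes that glucocorticoids induce, a list that holds TAT and TDO2, had 10 of 11 measured, 8 of them positive with a median of 0.40, 0 passing an adjusted p of 0.05, and 3 higher and 1 lower at an unadjusted p of 0.05. PER1 had a log2 ratio of 0.68, TSC22D3 of 0.43, KLF9 of 0.37 and SGK1 of -0.54 per the authors' deposited table. PRLR itself had a log2 ratio of -0.05 per the authors' deposited table (adjusted p = 0.936).

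Of 8 listed carriers of aromatic amino acids, 7 were measured, 4 with a positive and 3 with a negative log2 ratio, and 0 passed an adjusted p of 0.05. At an unadjusted p of 0.05, 2 were higher and 1 lower, against 7.22% and 8.79% of all genes. SLC7A5, the light chain of the large neutral amino acid exchanger, had the lowest log2 ratio of the 7 per the authors' deposited table (approximate interval -1.49 to -0.51, adjusted p = 0.0589) at an average of 1.40 log2 CPM. Its heavy chain SLC3A2, which also serves other carriers, had -0.12 at 5.28 log2 CPM per the authors' deposited table. SLC43A1, a carrier abundant in liver, had 0.27, and SLC7A8 had 0.84 at an average of 0.07 log2 CPM per the authors' deposited table.

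Interferon-induced genes, of which IDO1 is a known example, had 15 of 16 symbols measured as 16 genes. Of these 0 rose and 4 fell at an adjusted p of 0.05, where 0.410% of all genes fell. At an unadjusted p of 0.05, 15 were lower, against 8.79% of all genes. The 4 past the adjusted p were HERC6 (log2 ratio -2.46), ISG20 (-1.88), OAS1Z (-1.71) and 1 of the genes with the symbol GBP4 (-1.59) per the authors' deposited table. OAS1Z and GBP4 have close paralogs, and how reads shared between copies were counted was not tested. IDO1, at -0.01, was the member of that list with an unadjusted p above 0.05.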
